A study of Mus musculus with 6 samples.

Results

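The loci described here are those of Dot1l, Kmt2a (also called Mll or Mll1), Men1 and the endogenous Mn1 of the mouse, read from a map of the histone mark H3K79me2 in mouse myeloid leukaemia. Each locus was taken as a fixed window of the mm9 genome, and every listed peak that overlapped a window by at least 1 bp was a member. This gave 9 member peaks of the 18992 in the list: 4 in the Dot1l window, 3 in the Kmt2a window, 2 in the Men1 window and 0 in the Mn1 window. The windows were set by gene, but they were chosen with earlier results of these data known. Their edges need not be the ends of the genes, which no mm9 annotation was at hand to place.

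The series holds 3 H3K79me2 libraries, made by immunoprecipitation with an antibody against the mark (ab3594), and 3 input libraries of the same kind of chromatin without antibody. All came from blasts sorted from the bone marrow of moribund mice that had been given CMP cells transformed with MN1. Every library had the C57BL/6 background and the genotype Dot1l f/f, a conditional allele that had not been inactivated, so no group was deleted for Dot1l. How MN1 was introduced is not stated in the labels. The blasts were kept for a short time in M3234 medium with FBS, Il3, Il6 and SCF before chromatin was prepared. No label ties a library number to a particular mouse.

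DOT1L is the methyltransferase that places methyl groups on lysine 79 of histone H3, and H3K79me2 typically lies over the 5′ part of transcribed genes. KMT2A is a methyltransferase of histone H3 lysine 4 that is broken by translocations in leukaemia, and its CXXC domain binds unmethylated CpG dinucleotides. Menin, the product of Men1, is a scaffold that binds the amino-terminal part of KMT2A and is needed by KMT2A fusion proteins to hold their target genes. MN1 is a transcriptional coregulator whose high level marks a form of human acute myeloid leukaemia and whose overexpression transforms mouse progenitors. The endogenous Mn1 locus is distinct from the MN1 with which the cells were transformed. The series title names MLL1 and DOT1L as partners of MN1 in leukaemia, and the question asked of the map is whether and how the genes of these proteins were themselves marked in these cells.

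RefSeq promoters are shown for the 3 genes whose windows held peaks, because their 5′ ends are where the mark is usually laid down and they differ in CpG content. They are the 250 bases before the first listed transcription start, 5′ to 3′ on the strand of the gene, with CpG dinucleotides in capitals. Their positions are in GRCm38.p6 and cannot be set against the mm9 positions of the peaks: chr10:80754953-80755202 on the plus strand for Dot1l, chr9:44881290-44881539 on the minus strand for Kmt2a and chr19:6334729-6334978 on the plus strand for Men1. The table used gave 1 start for Dot1l, 1 for Kmt2a and 3 for Men1.
Dot1l: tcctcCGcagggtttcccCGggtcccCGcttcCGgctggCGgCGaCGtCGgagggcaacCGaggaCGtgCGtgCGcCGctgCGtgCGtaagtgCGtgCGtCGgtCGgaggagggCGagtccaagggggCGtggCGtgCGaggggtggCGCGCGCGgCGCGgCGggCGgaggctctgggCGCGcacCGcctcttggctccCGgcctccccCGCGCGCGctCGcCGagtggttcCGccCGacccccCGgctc
Kmt2a: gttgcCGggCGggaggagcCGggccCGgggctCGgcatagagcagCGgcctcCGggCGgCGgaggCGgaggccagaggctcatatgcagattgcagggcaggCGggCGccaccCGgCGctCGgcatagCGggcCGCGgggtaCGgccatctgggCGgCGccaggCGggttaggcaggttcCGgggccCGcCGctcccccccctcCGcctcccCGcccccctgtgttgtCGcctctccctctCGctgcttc
Men1: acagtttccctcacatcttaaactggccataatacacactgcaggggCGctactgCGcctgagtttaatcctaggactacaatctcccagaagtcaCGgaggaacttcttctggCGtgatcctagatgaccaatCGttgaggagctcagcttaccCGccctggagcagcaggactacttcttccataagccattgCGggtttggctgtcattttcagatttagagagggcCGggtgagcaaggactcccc
The Dot1l promoter held 44 CpG dinucleotides and was 78.4% G or C. At least as many were held by 0.539% of the 32851 promoters of that table. The Kmt2a promoter held 29 CpG dinucleotides at 76.8% G or C, a number reached by 6.78% of promoters. The Men1 promoter held 8 CpG dinucleotides at 52% G or C, near the median promoter with 6 CpG dinucleotides and 52.4% G or C. The GC box GGGCGG, searched on both strands, occurred 2 times in the Dot1l promoter, 4 times in the Kmt2a promoter and 1 time in the Men1 promoter, and 32.7% of all promoters held it. The CCAAT box (CCAAT, both strands) occurred in the Men1 promoter alone of these 3, 1 time, and in 33.8% of all promoters. The letters TATAAA were in none of the 3 on either strand and in 12.4% of all promoters. At the first listed start, Dot1l and Kmt2a thus had CpG-dense promoters and Men1 a promoter near the median. The other listed starts of Men1 were not examined. Mn1 was not matched in the promoter table.

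H3K79me2 was strong over the 5′ side of Dot1l and Kmt2a and over the middle of the small Men1 window, and no peak lay in the Mn1 window. Of the 9 member peaks, 4 had a fold of at least 4 over the control, against 29.3% of all listed peaks. The same 4 had a −log10 q of at least 10, as had 36.4% of all listed peaks. There were 2 of these strong peaks in the Dot1l window, 1 in the Kmt2a window and 1 in the Men1 window. A further 3 had a fold under 2, against 34.8% of all listed peaks, and the other 2 lay between these values. The fold is the authors' ratio of pooled pileup to control background for each peak, and the pileup is the coverage of the pooled H3K79me2 reads. The median fold was 2.89 over the 9 member peaks and 2.28 over the whole list. The list pools the libraries and gives no value per library, so no spread between replicates exists for any value here and no test between samples could be run. No source used here states the peak caller's mode, or whether a pileup or fold is an average over its peak or its highest point. The highest fold or pileup of a locus therefore means the largest value among its peaks, not a highest point within a peak.

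**Figure D1:**
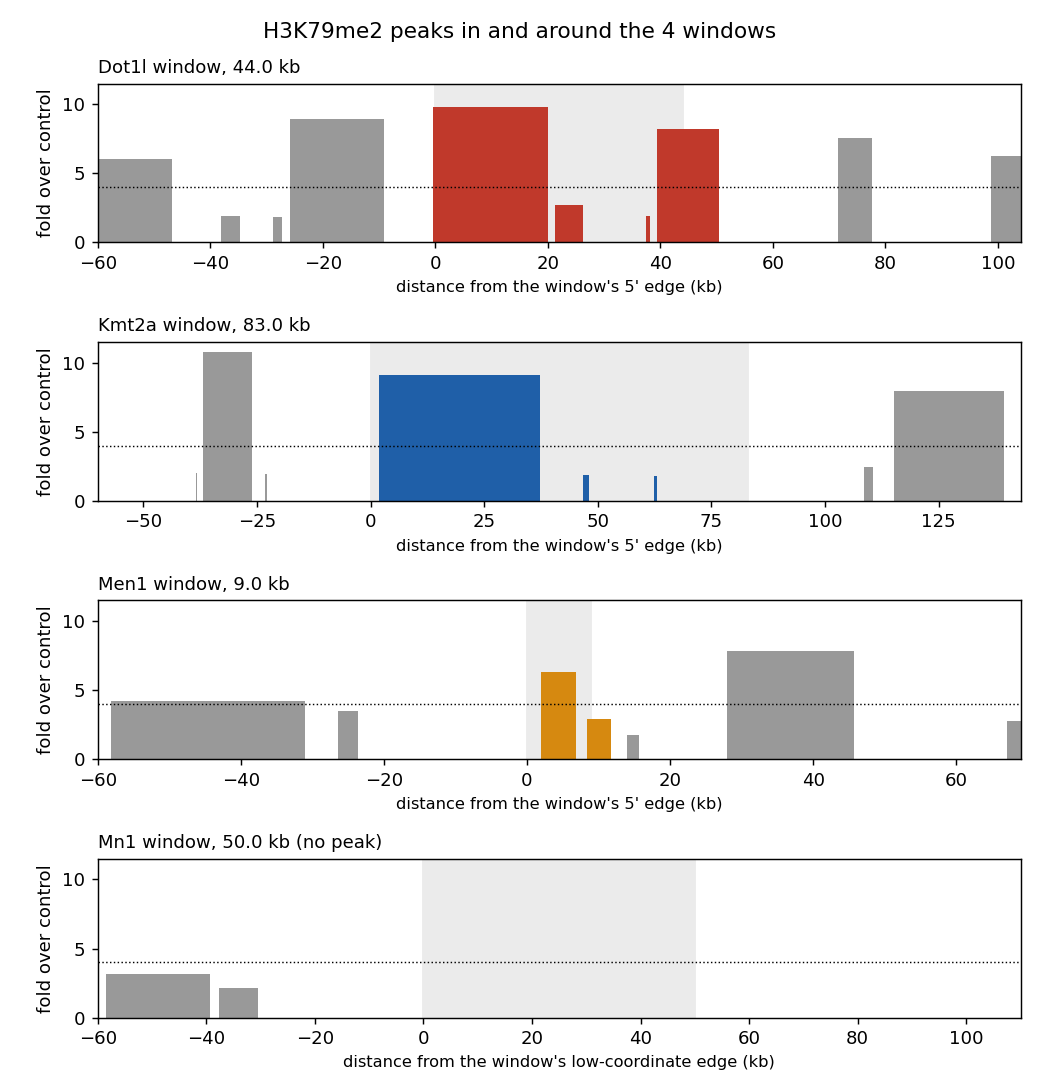
Each panel shows a locus window (grey shading) with 60 kb on either side: the horizontal axis is the distance in kb from the 5′ edge of the window (from its low-coordinate edge for Mn1), and the height of a bar is the authors' fold over control. Coloured bars are member peaks, grey bars are other peaks and the dotted line is a fold of 4. Strong bars start at the 5′ side of the Dot1l and Kmt2a windows, and the Mn1 window is empty.

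Dot1l, the gene of the enzyme that makes the mark, carried the highest single fold and pileup of the 4 loci. Its window, chr10:80216000-80260000, spans 44.0 kb. The first peak, chr10:80215653-80236094, was 20.4 kb wide and began 0.347 kb outside the 5′ edge. It had a pileup of 119.3, was enriched 9.80-fold and had a −log10 q of 88.7, the q being the peak caller's own value for pooled reads. Its fold ranked 432 of 18992 in the list and 31 of 979 on chromosome 10, and 97.7% of all peaks had a lower one. The marked 5′ region was followed after a gap of 1.21 kb by a weak peak, chr10:80237301-80242299, 4.999 kb wide with a pileup of 31.1 and a fold of 2.74. The fold of the first peak was 3.58 times that of this neighbour. The gap between them was among the shortest in the list, where the 0.05 quantile of distances between neighbouring peaks was 1.285 kb.

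The 3′ side of the Dot1l window held a second strong region that ran past the window. A stretch of 11.2 kb without a peak, from 26.3 to 37.5 kb of the window, separated it from the 5′ marking. After that came the narrowest Dot1l member, chr10:80253454-80254057, 0.604 kb wide with a pileup of 21.2 and a fold of 1.93. It was followed, after 1.33 kb, by chr10:80255385-80266471, 11.1 kb wide with a pileup of 105.7, an 8.18-fold enrichment and a −log10 q of 71.9. Only 4.62 kb of this last peak, 41.6% of its width, lay in the window and 6.47 kb lay beyond the 3′ edge. In RefSeq gene order (GRCm38.p6) the next genes on that side are Plekhj1, Sf3a2, which encodes a splicing factor subunit, and Amh, the anti-Müllerian hormone gene. The list cannot say whether this 3′ region belongs to Dot1l or to a gene beside it.

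In all, 68.9% of the Dot1l window was covered by peaks, and 56.2% by peaks of at least 4-fold. Of the covered bases, 68.6% lay in the 5′ 50% of the window. The neighbourhood on the 5′ side was also well marked: the nearest peak outside the window, chr10:80190087-80206831, lay 9.17 kb away with a fold of 8.94 and a pileup of 108.9. On that side the next RefSeq genes are Ap3d1, which encodes a subunit of the AP-3 adaptor complex, then Izumo4 and Mob3a. Peaks covered 66.0% of the 200 kb on the 5′ side and 18.5% of the 200 kb on the 3′ side, where the nearest peak, chr10:80287635-80293564, lay 27.6 kb from the window with a fold of 7.55. Of all stretches of 44.0 kb laid end to end between the first and last peaks of each chromosome, 22.3% held any peak and 4.43% were covered at least as much as the Dot1l window. These stretches, like those used for the other windows, were not limited to genes. Such shares therefore do not compare a window with other genes.

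Kmt2a carried the widest single region of the 4 loci, at its 5′ side. The window, chr9:44609000-44692000, spans 83.0 kb, and Kmt2a lies on the minus strand, so its 5′ side is the high-coordinate one. The main peak, chr9:44654618-44690094, was 35.5 kb wide and ran from 1.91 to 37.4 kb inside the 5′ edge. It had a pileup of 111.1, a 9.11-fold enrichment and a −log10 q of 71.2, with 96.4% of all peaks lower in fold and a rank of 36 of 1015 on chromosome 9. The region was 1.74 times as wide as the first Dot1l peak, and 92.0% of all peaks were narrower.

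Towards the 3′ side Kmt2a was marked weakly and then not at all. A peak of 1.27 kb, chr9:44643927-44645196, followed after 9.42 kb with a pileup of 22.2 and a fold of 1.90. The third peak, chr9:44629045-44629531, came 14.4 kb further on, was 0.487 kb wide and had a pileup of 20.1 and a fold of 1.83. Both were low in the list, with 23.2% and 13.5% of all peaks lower in fold. They were not low for their widths: among peaks with a width within 20% of their own, 58.0% and 48.4% were lower. The fold of the main peak was 4.79 times that of the next highest. The last 20.045 kb of the window held no peak. In contrast to Dot1l, the 3′ end of the Kmt2a window therefore had no second strong region.

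Peaks covered 44.9% of the Kmt2a window, and 95.3% of the covered bases lay in the main peak, which was also the share in the 5′ 50% of the window. Of stretches as long as this window, 28.9% held a peak and 7.17% were covered at least as much. RefSeq places a long noncoding RNA gene, Gm39326, across part of Kmt2a, and which part was not determined here. Beyond the 5′ end come Gm30883 and a pseudogene, Gm26249. Reads of a histone mark carry no strand of transcription, so marking in the shared part cannot be given to Kmt2a or Gm39326. On the 3′ side the next genes are Ttc36, Tmem25 and Ift46. The nearest peaks outside the window were a 0.416 kb peak 22.8 kb beyond the 5′ edge, chr9:44714768-44715183, with a fold of 1.98, and a 1.99 kb peak 25.7 kb beyond the 3′ edge, chr9:44581351-44583341, with a fold of 2.45. These nearest peaks were weak, but stronger regions lay further out. The strongest within 200 kb beyond the 5′ edge, chr9:44718035-44728949, lay 26.03 kb away with a fold of 10.8, and the strongest beyond the 3′ edge, chr9:44408225-44448953, lay 160.0 kb away with a fold of 10.04. Both folds were above that of the main Kmt2a region, and both peaks were picked after their values were seen. Peaks covered 8.79% of the 200 kb on the 5′ side and 33.5% of the 200 kb on the 3′ side.

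Men1 had a short but strong region. The window, chr19:6333000-6342000, spans 9.001 kb. The main peak, chr19:6334997-6339906, was 4.91 kb wide, ran from 1.997 to 6.91 kb of the window and had a pileup of 78.7, a 6.32-fold enrichment and a −log10 q of 41.3. Its width was close to the list median of 4.42 kb, whereas 86.0% of all peaks had a lower fold. Among the 1822 peaks with a width within 20% of its own, whose median fold was 2.39, 93.6% had a lower fold. The rank on chromosome 19 was 84 of 606.

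The second Men1 peak, chr19:6341386-6344700, lay mostly outside the window. It was 3.32 kb wide with a pileup of 33.5 and a fold of 2.89, began 1.48 kb after the main peak, and had 18.6% of its width inside the window. The next RefSeq gene on this side is Map4k2, which encodes a protein kinase, followed by Mir6989 and Gm14966, and on the other side are Cdc42bpg, Gm52380 and Ehd1. A further weak peak, chr19:6346952-6348697, with a fold of 1.77, lay 4.95 kb beyond the 3′ edge. On the 5′ side the nearest peak, chr19:6306630-6309391, was 23.6 kb away with a fold of 3.48. Peaks covered 61.4% of the Men1 window and peaks of at least 4-fold covered 54.5%. The strongest peak within 200 kb, chr19:6360955-6378745, was 19.0 kb beyond the 3′ edge with a fold of 7.87, above that of Men1, and was also picked after its value was seen. Of stretches as long as the Men1 window, 13.3% held a peak and 7.67% were covered at least as much.

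**Figure D2:**
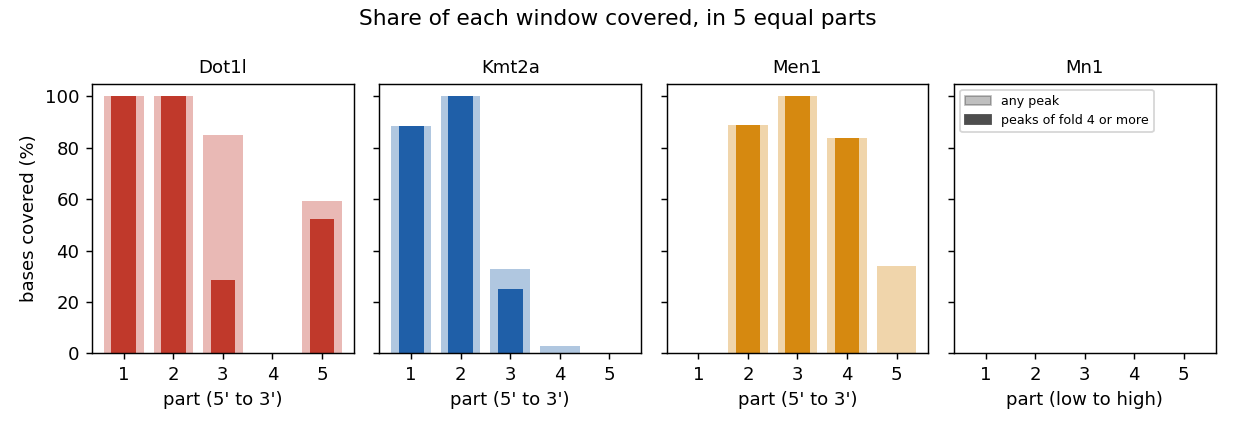
The vertical axis is the percent of bases covered in each of 5 equal parts of a window, numbered from the 5′ side (from low to high coordinate for Mn1); pale bars count any peak and dark bars count peaks with a fold of at least 4. Parts 1 and 2 of the Dot1l window were covered by 100%, the Kmt2a window fell off after part 2, and Mn1 had no covered part.

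The profiles along the windows differed between the loci. In the Dot1l window parts 1 to 3 of 5 were covered by 100%, 100% and 85.2%, part 4 by 0% and part 5 by 59.3%. In the Kmt2a window the shares were 88.5%, 100%, 32.8%, 2.93% and 0%. In the Men1 window, where 1 part is less than 2 kb long, they were 0%, 89.1%, 100%, 83.7% and 34.1%. Only the Kmt2a window thus had its coverage on the 5′ side with little beyond it. Because the gene ends were not placed in mm9, it is not known whether part 1 of the Men1 window lies in Men1.

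The endogenous Mn1 window, chr5:111840000-111890000, held no H3K79me2 peak over its 50.001 kb. The nearest peak on the low-coordinate side, chr5:111802293-111809548, ended 30.5 kb away and was weak, with a pileup of 24.5 and a fold of 2.13. The strongest within 200 kb on that side, chr5:111758001-111779386, lay 60.6 kb away with a fold of 7.13 and was picked after its value was seen. Peaks covered 23.9% of the 200 kb on the low-coordinate side and 0% of the 200 kb on the high-coordinate side. Pitpnb, which encodes a phosphatidylinositol transfer protein, is the nearest protein-coding gene on the low-coordinate side in RefSeq order. Gm36027 lies between Mn1 and Pitpnb, and Gm35628 lies beyond. On the other side the nearest peak, chr5:112705748-112737180, began 815.7 kb away, was 31.4 kb wide and had 7.33-fold enrichment. The next 3 genes there in RefSeq, Gm42155, Gm42154 and Gm36149, are long noncoding RNA genes, and their positions in mm9 were not used here.

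The Mn1 window lay in a peak-free stretch of 896.2 kb, chr5:111809549-112705747. It ranked 601 in length of 18971 stretches between neighbouring peaks, with 96.8% shorter, and 37 of 1165 on chromosome 5. The lack of listed peaks extended far beyond the window on the high-coordinate side. Of stretches of 50.001 kb laid end to end, 23.6% held a peak and 76.4% held none. These stretches were not limited to genes, so they do not tell how common an empty window is among genes. The lowest pileup in the list is 19 and the lowest −log10 q is 1.02, so marking below these limits was not detectable at this depth, and a stretch where reads could not be placed would look the same. Neither can the list show how many copies of the locus the leukaemias had or whether Mn1 was transcribed.

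**Figure D3:**
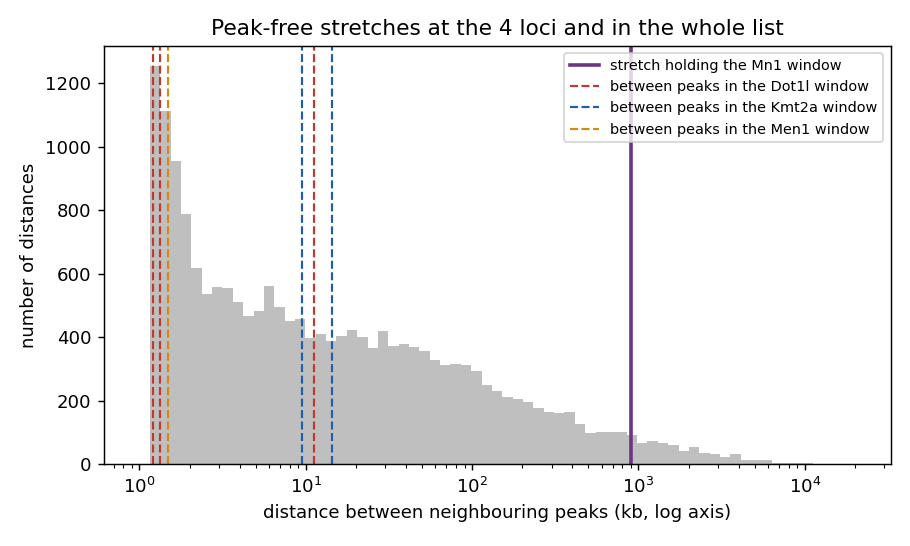
The grey histogram counts the 18971 distances between neighbouring peaks in the whole list by length in kb (log axis). The purple line is the 896.2 kb stretch that holds the Mn1 window, and dashed lines are the distances between member peaks in the other 3 windows, which run from 1.21 to 14.4 kb.

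The order of the loci by highest fold was Dot1l at 9.80, Kmt2a at 9.11 and Men1 at 6.32, with no value for Mn1. The Dot1l value was 1.08 times that of Kmt2a and 1.55 times that of Men1. Without replicate values, none of these differences can be set against an error. The order by highest pileup was the same, with 119.3, 111.1 and 78.7. By mean fold over the covered bases, each base taking the fold of its peak, Kmt2a came first at 8.76, followed by Dot1l at 8.24 and Men1 at 5.94. The order of Dot1l and Kmt2a thus turned on the measure.

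The strong and weak members, told apart by the fold of 4, also differed in pileup. The pileup enters the fold, so this is not a separate finding. The 4 strong peaks had pileups of 78.7 to 119.3, and the 5 weaker ones of 20.1 to 33.5, with the list median at 27.2. The strong peak at the 3′ side of Dot1l, 11.1 kb wide, had a higher fold than 93.9% of the 1730 peaks with a width within 20% of its own. The same share was 94.1% of 1380 peaks for the first Dot1l peak, 85.5% of 979 peaks for the main Kmt2a peak and 93.6% for the main Men1 peak. The order of these 4 shares turned on which peaks were taken as of like width. Because the strong peaks were told apart by their fold, high shares follow in part from that choice. For the 5 weaker members the share was 56.9% and 74.5% in the Dot1l window, 58.0% and 48.4% in the Kmt2a window and 75.4% in the Men1 window. The control background, computed from pileup and fold, lay between 10.5 and 12.04 for the 9 members. Over the list its median was 11.2 and its lowest value 10.5. For the 4 strong peaks it lay between 11.3 and 12.04, so these computed values were not below the list median. If pileup and fold are averages over a peak, a value computed in this way need not equal the control level there.

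**Figure D4:**
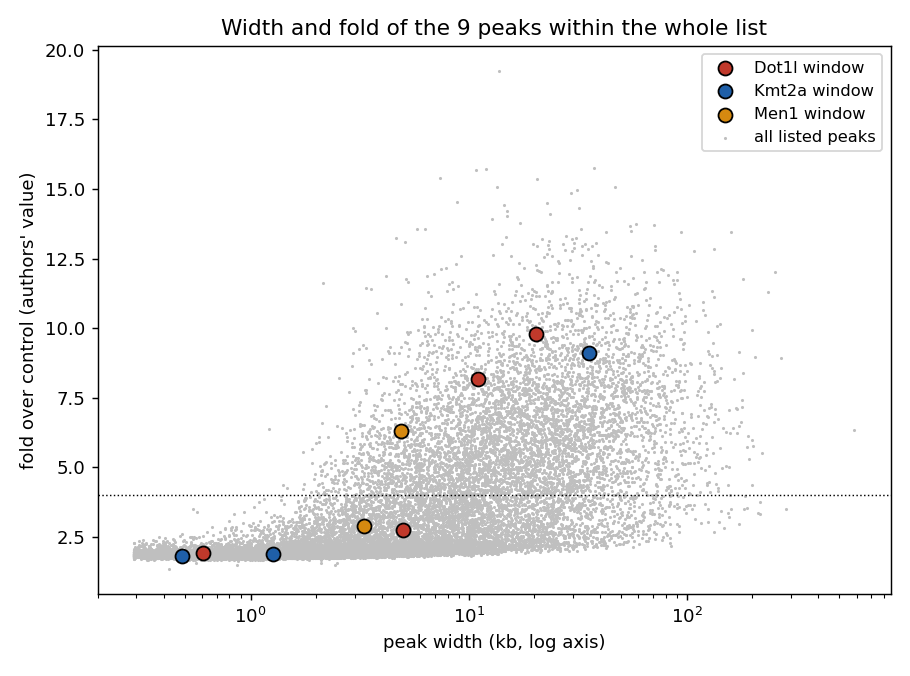
The horizontal axis is the peak width in kb (log axis) and the vertical axis the authors' fold over control. Coloured points are the 9 member peaks by window, grey points are the listed peaks and the dotted line is a fold of 4. The 4 strong members, told apart by their fold, lie in the upper part of the cloud for their widths, and the other 5 lie below a fold of 3.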

How the data were processed

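H3K79me2 and input chromatin of MN1-driven mouse leukaemias were compared in 1 deposited peak list. The submitters' processing notes name the build mm9, the aligner GSNAP, the peak caller MACS2 and the tools CASAVA 1.8.2, bedtools 2.25.0 and SAMtools, with no settings. The columns of the deposited table are, per the file header, each peak's width, pileup signal (coverage), fold enrichment (a ratio), −log10 p, which was not used, and −log10 q. By its name, the table combines the libraries. Reads per library, and so depth, are unknown beyond the pileup.

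Peaks overlapping the windows were taken, and covered bases, gaps and ranks in the list were computed. The control background is (pileup + 1) / fold − 1, which takes it that MACS2 adds 1 to both terms and that both are read at the same point. No test was run. Overlap, coverage and joining were tested on 200 simulated peak lists, with 0 mismatches. The windows and thresholds were chosen with earlier results of these data known. The text names the member peaks, the nearest peak on each side of every window and the 3 RefSeq neighbours of each gene on either side. It also names the strongest peak within 200 kb on some sides. Other genes of the pathway were listed but not located, for want of an mm9 annotation. Promoter sequences and gene order are RefSeq's (GRCm38.p6). Alternatives were stricter peaks, joined peaks, a stricter overlap and wider or narrower windows. Python 3.11.15, numpy 2.4.6, pandas 2.3.3 and matplotlib 3.10.9 were used.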

Additional observations from a re-analysis of the deposited data

How the results depend on the processing

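No paired analysis was possible because the peaks were deposited for all libraries together. For the same reason no replicate could be left out. The 9 member peaks became 4 when a −log10 q of 10 was required and 4 when a fold of 4 was. They became 6 for a −log10 q of 5 or more, 6 after peaks at most 3 kb apart were joined, 7 when 50% of a peak had to lie in the window, 10 with windows widened by 5 kb and 8 with windows narrowed by 2 kb. The number of loci with a peak was 3 under these 7 alternatives, and Mn1 had 0 peaks under each. The Mn1 count could not have changed, so it says nothing on robustness. Stricter, joined or narrowed settings cannot add a peak, and widening by 5 kb does not reach the nearest one, 30.5 kb away. Joining peaks left 2 in the Dot1l window, 3 in the Kmt2a window and 1 in the Men1 window. The splits at Dot1l and Men1 thus depended on the distance allowed. Kmt2a was reduced to 1 peak for a −log10 q of 5 or more. Requiring 50% of the width inside removed the 3′ peak of Dot1l and the second peak of Men1. The covered share of the Men1 window, 61.4%, was 43.5% with the window widened and 98.1% with it narrowed, since the window is short. Set against fixed width classes (edges at 1, 5, 20 and 50 kb) in place of widths within 20% (a band chosen after seeing the data), the share of peaks with a lower fold was 98.5% for the main Men1 peak, at the top edge of its class, 92.0% and 93.0% for the first and last Dot1l peaks and 87.9% for the main Kmt2a peak. The highest fold of Dot1l, Kmt2a and Men1 did not move with the windows or the overlap asked for. It could not have moved, so this too says nothing on robustness. Each peak keeps its fold, and the top peak of each locus lay at least 98.3% inside its window. The further Men1 peak reached by widening had a fold of only 1.77.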
